A study of Mus musculus with 2 samples.

Results

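The genes described here are the spliceosomal small nuclear RNA (snRNA) genes and gene copies that had counts in nuclear RNA of mouse macrophages. They were selected on measured counts, as the genes annotated as snRNA with at least 10 expected counts summed over 2 libraries, which 32 of 1383 annotated snRNA entries reached (2.31%). Because counts chose them, their levels are given as a description with no test. Their lengths, sequences and values in a second quantification of the same libraries were not criteria of the choice. Expected counts nevertheless depend on an entry's length and on how reads are divided among like sequences. The second quantification used the same libraries, so none of the 3 is independent of the choice. By expected counts, no gene lay near the minimum. The lowest of the 32 were Rnu1b1 and Rnu1b2 with 31.77 counts each and Rnu12 with 51 counts, and the highest below it were Gm26110 and Gm22214 with 3 counts each and Gm23238 with 2.49.

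Each library held total RNA, depleted of ribosomal RNA, from the nuclei of bone marrow-derived macrophages, phagocytes grown in culture from the marrow of C57BL/6J mice. The cells had received Lipid A, the lipopolysaccharide portion bound by the receptor TLR4, at 100 ng/ml for 12 hours, had been kept without it for 12 hours and had then been given 100 ng/ml again for 20 minutes. Both libraries belong to this 1 group, so no effect of treatment was measured. The labels call the fraction nuclear in one place and nucleoplasmic in another, give no sex or age, name 1 donor for both libraries and do not say whether the cultures came from separate animals, so the spread between libraries may be technical. The starting amount was 1 ug of RNA for replicate 1 and 500 ng for replicate 2, so that RNA input and replicate cannot be told apart. The labels give both libraries a size range of 250 to 400. The gene tables held 21954179 and 17739520 expected counts. With them a gene at 0 could still reach 0.137 or 0.169 CPM (counts scaled to a common library total), a limit for counting error only. All 8 macrophage markers were at 1 TPM (transcripts scaled by length and library) or more with a median of 124 TPM, against medians of 0 TPM for 7 lymphoid and 0.0775 TPM for 8 neutrophil markers.

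snRNAs are short, non-polyadenylated RNAs that form the core of the spliceosome. U1 pairs with the 5′ splice site and U2 with the branch site, U4 and U6 pair with each other until U6 is released to form the catalytic centre, and U5 holds the exon ends. U11, U12, U4atac and U6atac do the corresponding work, with U5, on a rare class of introns, while U7 takes part in histone pre-mRNA processing and not in splicing. U1, U2, U4, U5 and the minor-class U11 and U12 are made by RNA polymerase II and bind a ring of Sm proteins at a uridine-rich site, and U6 is made by RNA polymerase III. In mammals most of them come from several near-identical gene copies and from many pseudogenes.

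The 32 genes comprised 18 copies of U1, 11 of U2, 2 of U4 and 1 of U12. Only 6 carry a name that states the RNA, and the 26 others have Gm identifiers and were placed by their sequence, allowing edits of up to 30% against a named entry. The U4 pair was placed by likeness to Gm24265, an entry taken as the U4 reference because it holds a U4 motif near its start. That reference was picked after its values had been seen. The 18 U1 copies were 164 to 166 bases long and held 8 distinct sequences, the 11 U2 copies were all 191 bases long and held 7, the U4 copies were 141 bases long and held 2, and U12 was 151 bases long.

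The 3 U1 sequences with the most counts, and the low Rnu1b1, are shown because they differ by so few bases. In Rnu1a1 the capitals mark the start that pairs with the 5′ splice site and the Sm site core. In the others they mark the bases that differ from Rnu1a1, or for Rnu1b1 from Gm22614.
Rnu1a1: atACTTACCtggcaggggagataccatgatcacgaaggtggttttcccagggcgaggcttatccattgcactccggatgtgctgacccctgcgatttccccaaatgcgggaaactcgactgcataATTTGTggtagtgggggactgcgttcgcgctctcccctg
Gm22513: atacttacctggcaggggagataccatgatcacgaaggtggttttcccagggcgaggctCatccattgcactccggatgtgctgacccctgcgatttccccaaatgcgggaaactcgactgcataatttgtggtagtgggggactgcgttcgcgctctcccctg
Gm22614: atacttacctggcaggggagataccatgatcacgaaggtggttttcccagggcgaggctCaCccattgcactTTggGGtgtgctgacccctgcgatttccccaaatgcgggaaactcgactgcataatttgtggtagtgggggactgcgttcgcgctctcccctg
Rnu1b1: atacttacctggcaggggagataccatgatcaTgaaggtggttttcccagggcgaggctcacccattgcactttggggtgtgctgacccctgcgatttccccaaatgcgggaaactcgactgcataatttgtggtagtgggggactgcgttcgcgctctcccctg

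The U2 sequences are shown for the same reason. In Rnu2-10 the capitals mark the stretch that pairs with the branch site and the Sm site core, and in the others the bases that differ from Rnu2-10.
Rnu2-10: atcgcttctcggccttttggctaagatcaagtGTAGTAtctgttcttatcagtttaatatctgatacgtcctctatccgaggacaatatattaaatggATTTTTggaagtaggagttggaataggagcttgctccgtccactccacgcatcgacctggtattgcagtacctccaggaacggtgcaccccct
Gm23472: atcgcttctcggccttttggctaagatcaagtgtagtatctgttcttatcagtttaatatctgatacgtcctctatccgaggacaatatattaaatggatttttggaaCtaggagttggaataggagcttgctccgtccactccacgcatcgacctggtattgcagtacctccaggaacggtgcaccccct
Gm25939: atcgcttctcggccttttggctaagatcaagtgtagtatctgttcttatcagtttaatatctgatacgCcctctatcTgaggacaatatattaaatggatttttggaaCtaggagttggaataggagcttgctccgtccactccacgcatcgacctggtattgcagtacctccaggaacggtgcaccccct
Gm24497: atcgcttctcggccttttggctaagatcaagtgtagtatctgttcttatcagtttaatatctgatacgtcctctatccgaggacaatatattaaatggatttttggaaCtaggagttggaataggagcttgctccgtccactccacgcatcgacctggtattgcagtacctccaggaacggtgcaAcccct

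The U4 and U12 entries are shown because they are the shortest of the chosen genes. Capitals mark a U4 stretch that lies within the pairing region with U6, and the Sm site cores.
Gm24265: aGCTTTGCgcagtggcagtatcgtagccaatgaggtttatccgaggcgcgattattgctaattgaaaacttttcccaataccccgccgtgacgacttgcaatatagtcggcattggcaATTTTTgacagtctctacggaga
Rnu12: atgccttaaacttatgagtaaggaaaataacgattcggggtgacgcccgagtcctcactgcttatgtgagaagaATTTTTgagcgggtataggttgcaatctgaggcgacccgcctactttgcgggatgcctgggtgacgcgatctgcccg

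All sequences are the annotated transcripts of GENCODE M21 on mm10. Rnu1a1 (ENSMUSG00000095969.1) lies at chr11:87422867-87423030 and Gm22513 at chr12:54696782-54696945, both on the plus strand. Gm22614 lies at chr3:96488729-96488893 on the plus strand and Rnu1b1 at chr3:96359953-96360117 on the minus strand. Rnu2-10 (ENSMUSG00000065944.1) lies at chr11:101658238-101658428, Gm23472 at chr1:72236946-72237136, Gm24497 at chr1:72244213-72244403 and Gm25939 at chr1:72255008-72255198, all on the plus strand. Gm24265 lies at chr5:115489459-115489599 and Rnu12 (ENSMUSG00000065176.1) at chr15:83149644-83149794, both on the plus strand.

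Motifs were searched on the strand of the RNA. ACTTACC, the splice-site pairing start of U1, was in 18 of 18 U1 copies, and GTAGTA, the branch-site pairing stretch of U2, was in 11 of 11 U2 copies. GCTTTGC, from U4, was in 2 of 2 U4 copies, and the Sm site core ATTTNT was in 32 of 32 genes. The copies were placed in families by sequence, and the U4 reference was taken because it holds the U4 motif. The tallies of U1, U2 and U4 motifs within their own families thus follow largely from the placing and do not support it. Among the 213 snRNA entries of 141 to 191 bases that were not chosen, ACTTACC was in 19.7%, GTAGTA in 11.3%, GCTTTGC in 2.82% and ATTTNT in 60.1%. Over all 1351 entries that were not chosen the shares were 3.48%, 2.96%, 1.63% and 54.9%. ACAGAGA, from U6, was in 0 of the 32 and in 43.2% of the other entries. GCCTTTT, from the U5 loop, was in 11 of the 32 and in 2.81% of the other entries. Those 11 were the U2 copies, and no U5 entry was chosen, so a short motif alone does not name the family. No motif match overlapped another in the 32 genes, and none was found on their opposite strand. A match is a description of the letters, not a binding site.

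Most copies lie in a few clusters. On chromosome 12, 7 U1 copies lie within 41.8 kb (54696782 to 54738622), and on chromosome 3 all 7 copies of the U1b type, named for Rnu1b1, lie within 160 kb (96328425 to 96488893). Rnu1a1 and Gm22068 lie within 4.01 kb of each other in introns of Tex14 on chromosome 11. Of the U2 copies, 4 lie within 29.0 kb on chromosome 1 (72226240 to 72255198) and 5 within 53.6 kb on chromosome 11 (101604850 to 101658428), with Gm23444 elsewhere on chromosome 11 and Gm22973 on chromosome 12. The U4 pair lies within 0.936 kb on chromosome 5. In all, 10 of the 32 overlap another gene, each time in an intron and 8 times on its strand. Their host genes were at 0 to 1.83 TPM, except Ss18, the host of Gm24924, at 13.6 and 19.1 TPM, and Rock1, the host of Gm26244, at 24.7 and 44.8 TPM. No source gives the strand setting of the counting, so reads of a copy and of an overlapping host may not be separated.

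Length divided the chosen from most other entries. The shortest chosen gene was 141 bases, and 1133 of the 1383 entries (81.9%) were shorter. All 1107 entries under 130 bases had an effective length of 0 in both gene tables and 1 count in all. Effective length is the number of positions where a fragment of the library's lengths could start, and the shortest entry for which it rose above 0 was 130 bases in replicate 1 and 133 in replicate 2. The phiX174 spike-in entry, by its length less its effective length, implied mean fragments of 213 and 219 bases. The entries left at 0 included all 821 of the U6 family and 60 of U7. Rnu6, Rnu6-ps2 and Rnu7 had effective length 0, so that their counts of 0 are no measurement of those RNAs. Rnu11, the partner of U12 in the minor spliceosome, had 0 counts at 134 bases with effective lengths of 1.49 and 1.11.

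The other deposited transcript table, made from the reads directly, gave counts to these short entries. In it 220 snRNA entries reached 10 counts, among them 188 that the gene table left below. Entries under 130 bases had 8144 counts in both libraries together. The U6 family had 2128 and 3335 counts, but not in the U6 sequence itself. The 43 entries identical to Rnu6 had 0 counts in replicate 1 and 7.30 in replicate 2 in all. The 184 entries with edits of up to 5% against Rnu6, these 43 among them, had 215 and 264 counts. The 637 entries with edits over 5% held 89.9% and 92.1% of the family's counts. Rnu6-ps2, Rnu7 and Rnu11 were at 0 there too. Neither table thus gave the U6 sequence more than a few counts.

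**Figure D1:**
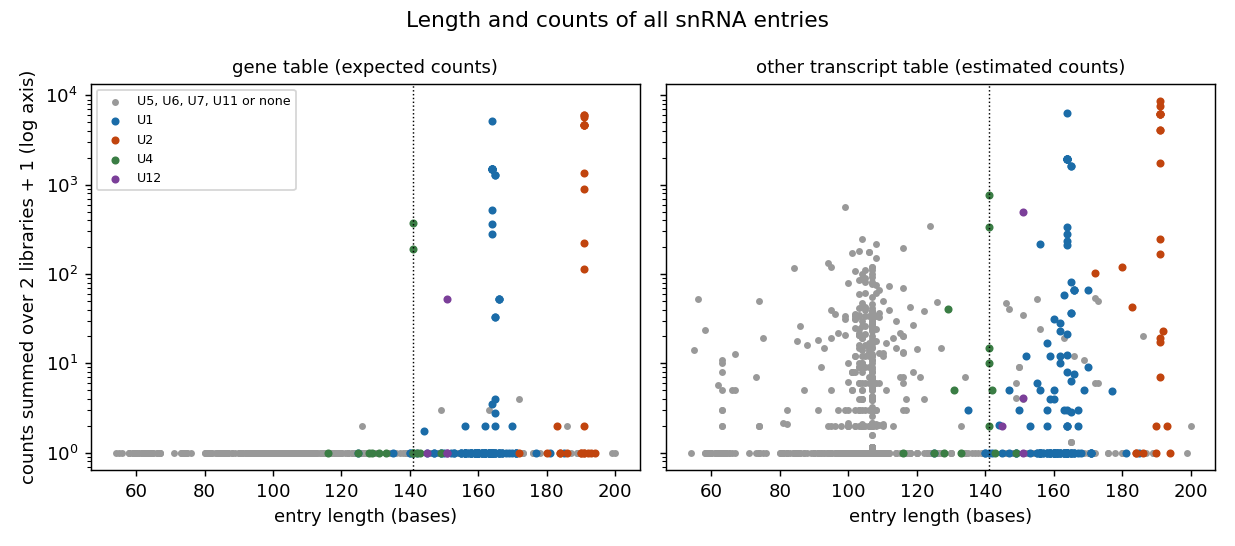
Counts summed over the 2 libraries, plus 1, on a log axis against the length of each of the 1383 snRNA entries, in the gene table (left) and in the other transcript table (right), with families by colour and a dotted line at the shortest chosen gene of 141 bases. In the gene table the 32 chosen entries stand at 141 bases or more and entries under 130 bases sit at or next to the floor, while 156 of them reach 10 counts in the other table.

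Length alone did not decide which entries were chosen. Of the U1-like entries of 164 to 166 bases, 18 were chosen and 30 were not. Those 30 had 8.25 counts in all in the gene table and 415 in the other transcript table. The 18 lay a median of 1 edit (range 0 to 8) from Rnu1a1, against 22.5 edits (4 to 49) for the 30. Of the 14 U2-like entries of 191 bases, 11 were chosen and 3 were not. The 3 had 1 count together in the gene table and 40.3 in the other. They lay a median of 8 edits (2 to 19) from Rnu2-10, against 1 (0 to 9) for the chosen copies. The ranges overlapped in both families, so likeness to these references alone did not divide chosen from other entries.

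U2 had the highest summed counts and U12 the lowest in both libraries. The 11 U2 copies had 23885 counts in replicate 1 and 15293 in replicate 2, or 975 ± 160 CPM (SD, n = 2). The 18 U1 copies had 13579 and 5857 counts, or 474 ± 204 CPM (SD, n = 2). The 2 U4 copies had 496 and 70 counts, and Rnu12 had 48 and 3. All 32 together took 0.173% (95% Wilson interval 0.171 to 0.175) and 0.120% (0.118 to 0.121) of gene counts. Each family had fewer CPM in replicate 2. CPM are scaled to the library total, so fewer CPM need not mean less of these RNAs in the cells. Nor can bulk RNA tell fewer cells of a type from less RNA per cell.

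By TPM the same genes took 11.4% and 10.9% of the total, because TPM divides each count by an effective length that was small for these RNAs. A U2 copy of 191 bases had effective lengths of 17.5 and 13.6, a U1 copy of 164 bases 7.39 and 5.51, Rnu12 4.16 and 3.09, and a U4 copy of 141 bases 2.39 and 1.78. So 1 count was worth 1.91 and 3.60 TPM for U2, 4.52 and 8.86 TPM for U1 of 164 bases, 8.02 and 15.8 TPM for U12, and 14.0 and 27.5 TPM for U4. A U4 count weighed 7.32 and 7.65 times as much as a U2 count. In replicate 2 each count weighed more than in replicate 1 for every one of these lengths.

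The order of U1 and U2 turned with the unit. U2 had more counts than U1 in both libraries. In TPM, U1 stood above U2 in replicate 1, with 61030 against 45675, and below it in replicate 2, with 51555 against 55033. U4 had 6946 and 1926 TPM on its 496 and 70 counts. The other transcript table, whose effective lengths for these genes ran from 24.8 to 50.9 over both libraries, gave U1 3171 and 4888 TPM and U2 3947 and 9295. There U2 stood above U1 in both libraries, and the 32 genes took 1.10% of all TPM on average instead of 11.1%.

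Gm22513, a U1 copy at one end of the chromosome 12 cluster, shows the difference between the units. It had 3463 counts in replicate 1 and 1642 in replicate 2, and 15653 and 14540 TPM. It ranked 1286th of all genes by counts and 9th by TPM. Its sequence has a single substitution against Rnu1a1, T60C, with positions counted from 1 at the 5′ end. No other entry among the 32 shares the whole sequence, and the authors' posterior SD of its count, their estimate of how uncertainly reads were assigned, was 0.40 and 0.66. The single base was enough to give the entry a value of its own in the tables. It held 25.5% and 28.0% of all U1 counts, and 25.9% and 27.0% in the other table.

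Of the 32 genes, 20 fell into 6 sets whose members had equal counts and equal TPM in both libraries. Every set had 1 sequence, so the deposited values hold the level of a sequence divided evenly among its copies, and no single copy of a set was measured. The largest set held 7 copies of the Rnu1a1 sequence (Rnu1a1, Gm22068, Gm22317, Gm22634, Gm23804, Gm25679 and Gm26444), on chromosomes 11 and 12. Each was listed with 1121.21 counts in replicate 1 and 359.41 in replicate 2. Together they had 7848 and 2516 counts. The next held 4 copies of the Rnu2-10 sequence (Rnu2-10, Gm23849, Gm23971 and Gm24950), listed with 3082.32 and 1599.19 counts each and with 12329 and 6397 in sum. The third in size held the U1b copies Rnu1b6, Gm24830 and Gm26232, with 45.33 and 6.46 counts each.

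The remaining sets were pairs. Gm23444 and Gm23472, U2 copies on chromosomes 11 and 1, had the highest counts of any single entry when both libraries are summed, 3571.01 and 2470.58 each. In replicate 2 alone Gm25939 stood above them with 2673. Gm22614 and Gm25890, the main U1b sequence, had 859.91 and 437.75 each. Rnu1b1 and Rnu1b2 had 23.71 and 8.06 each. The Rnu1b1 sequence differs from that of Gm22614 by C33T alone, yet the Gm22614 pair had 36.3 and 54.3 times its counts, and 38.1 and 60.3 times in the other table. Genes named for U1b in this annotation thus held few of the U1b counts, and Gm-named copies held most of them.

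Within the sets the authors' posterior SD was large against the count. It came to 49.2% to 76.3% of the count in replicate 1 over the 7 copies of the Rnu1a1 sequence, and to 45.0% to 109% in replicate 2. For the 4 copies of Rnu2-10 it came to 41.5% to 53.9% and 38.6% to 62.8%. It was 0 in both libraries for Gm25360, Gm22973, Rnu12, Gm24265 and Gm24407, whose sequences belong to no set and to no near copy. Of the 12 genes outside the sets, 6 had posterior SDs under 1 in both libraries. Gm24497, Gm26244 and Gm24924, which are near copies of a set, had SDs of 196 to 916 although no other gene shares their whole sequence.

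**Figure D2:**
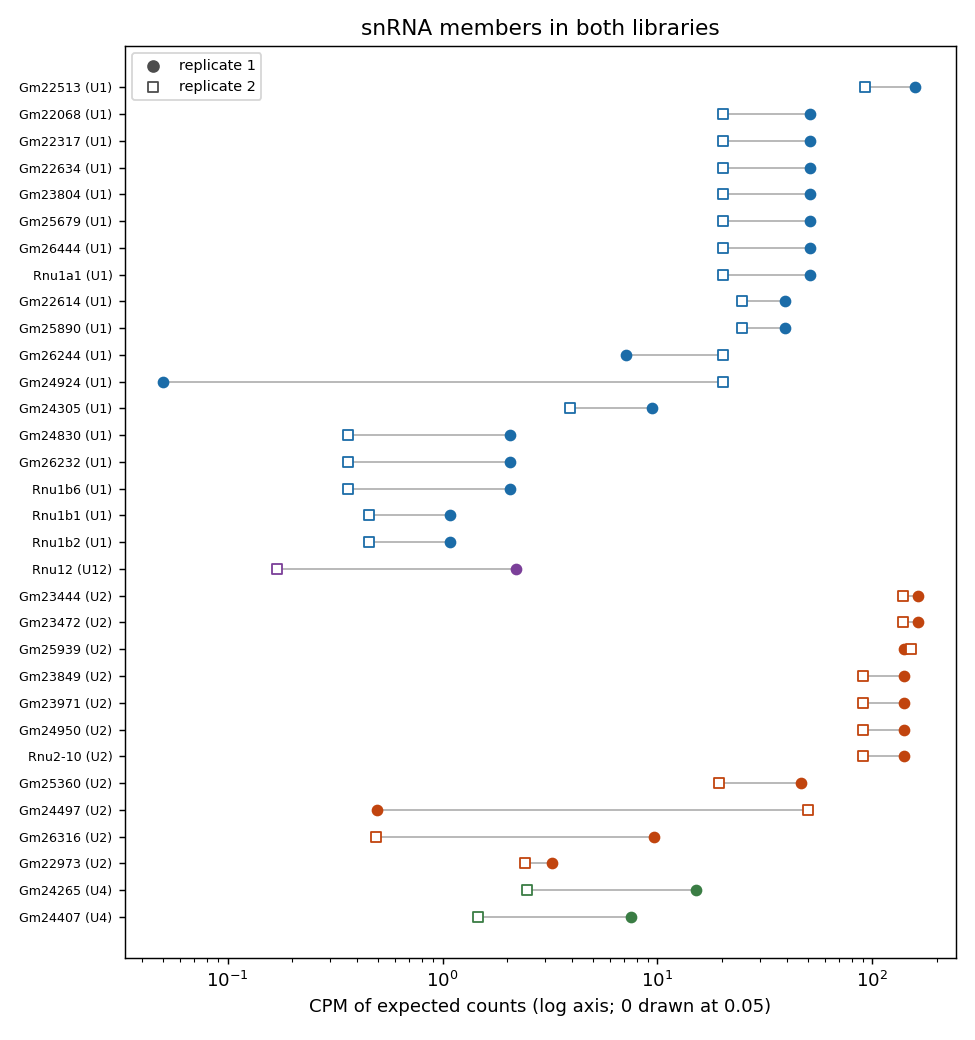
CPM of each of the 32 genes on a log axis, ordered by family and summed count, with filled circles for replicate 1, open squares for replicate 2 and a line joining the 2 libraries (a value of 0 is drawn at 0.05). Genes of 1 set lie exactly above each other, such as the 7 copies of the Rnu1a1 sequence at 51.1 and 20.3 CPM, and Gm24497, Gm26244 and Gm24924 are the entries whose square lies far to the right of the circle.

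The U1 counts lay mostly in U1a-type sequences of 164 bases. The 11 such entries held 86.0% (95% Wilson interval 85.4 to 86.6) of U1 counts in replicate 1 and 84.4% (83.5 to 85.4) in replicate 2, or 85.2% ± 1.09 (SD, n = 2). The 7 U1b entries held 14.0% and 15.6%. The other table gave U1b 13.9% and 15.6%. Rnu1b1, Rnu1b2 and Rnu1b6 are named members of this type and were low in both libraries, with 1.08 and 0.454 CPM for each of the first pair and 2.06 and 0.364 CPM for Rnu1b6. Gm24305, which differs from Rnu1a1 by A26G, had 207 and 69.7 counts.

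The U2 copies divided by the base at position 109, a position singled out after the values had been seen. The 5 entries with C there (Gm23444, Gm23472, Gm24497, Gm25360 and Gm25939) held 47.2% (46.6 to 47.8) of U2 counts in replicate 1 and 57.8% (57.1 to 58.6) in replicate 2. The 5 entries with G (Rnu2-10, Gm23849, Gm23971, Gm24950 and Gm26316) held 52.5% and 41.9%. In the other table the C entries held 47.2% and 55.8%. All 4 U2 copies of the chromosome 1 cluster have C, and all 5 of the larger chromosome 11 cluster have G, as the substitution G109C against Rnu2-10. Summed, the C entries had 514 and 499 CPM, a ratio of replicate 2 to replicate 1 of 0.971 (95% counting interval 0.944 to 0.998), and the G entries 571 and 361 CPM, a ratio of 0.632 (0.613 to 0.651). Gm22973 has A there (G109A), with 8 further substitutions, and had 71 and 43 counts. With 1 library on each side, no test of this shift over replicates is possible.

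Among the C entries, Gm25939 differs from Rnu2-10 by T69C, C78T and G109C and had 3095 and 2673 counts, with posterior SDs of 0.69 and 1.03. Gm25360 carries C78T, A95G, G109C and C154T and had 1026 and 342 counts. These neighbours on chromosome 1 had different ratios between the libraries, with intervals that do not overlap. Gm25939 had a ratio of 1.07 (1.01 to 1.13) and Gm25360 one of 0.413 (0.364 to 0.467).

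**Figure D3:**
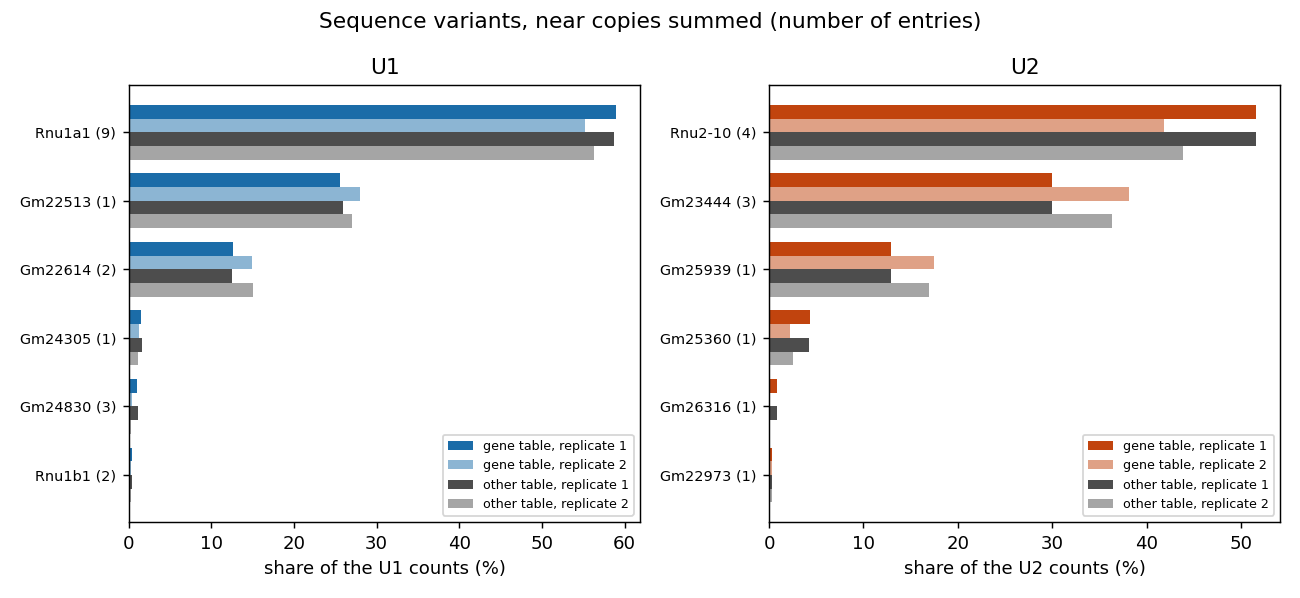
Share of all U1 counts (left) and all U2 counts (right) held by each sequence, after adding entries that are identical without their last 15 bases (number of entries in brackets), in the gene table (colour) and the other table (grey), with replicate 1 dark and replicate 2 pale. The Rnu1a1 group holds 59.0% and 55.2% of U1 in the gene table, and the Rnu2-10 group 51.6% and 41.8% of U2, with the other table's bars close to them.

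Between the libraries the genes were mostly lower in replicate 2. Of the 32, 28 had fewer CPM there and 4 had more, and the median log2 ratio of replicate 2 to replicate 1, with 0.1 CPM added, was -1.17. Over all 16781 genes with at least 10 counts that median was 0.12, and 29 of the 32 lay below it. A change of more than 2-fold downwards was counted for 18 of the 32 (56.3%), against 6.83% of all genes, and upwards for 3 (9.38%), against 9.83%. The 18 became 12 in the other transcript table and 7 by TPM. These counts describe the 2 libraries only. The 18 include the sets, so they stand for 9 sequences.

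The ratio was not equal among the families. U2 went from 1088 to 862 CPM, a ratio of 0.792 (95% counting interval 0.776 to 0.809), and U1 from 619 to 330 CPM, 0.534 (0.518 to 0.550). U4 went from 22.6 to 3.95 CPM, 0.175 (0.134 to 0.225), and U12 from 2.19 to 0.169 CPM, 0.0773 (0.0154 to 0.240). The 4 families thus stood in the order U2, U1, U4, U12 by ratio, in which the intervals of U4 and U12 overlap and the others do not. U2 is the longest of them and U4 the shortest, with U12 only slightly longer than U4. The intervals cover counting error only, and the difference between families was not tested over replicates. In the other table the ratios were 0.855 for U2, 0.580 for U1, 0.324 for U4 and 0.473 for U12.

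Most other short RNAs had fewer CPM in replicate 2 as well. Many snoRNAs and scaRNAs, though not all, guide RNA modification. The 43 snoRNA and scaRNA genes with at least 10 counts had a median log2 ratio of -1.98, and 33 of them were over 2-fold lower. Their summed CPM nevertheless had a ratio of 0.965, as Gm22009, with 41744 counts over both libraries, had a log2 ratio of 0.61. Copies with equal values were kept as separate genes, such as Rnu3b1 to Rnu3b4, each listed at -6.25 and again at 0.21. The 45 genes under 250 bases that are not snRNAs, most of them snoRNA or scaRNA genes already counted above, had a median of -2.04. Their summed ratio was 1.87 with mt-Atp8, a mitochondrial mRNA with 4602 and 13888 counts, and 0.328 without it. The 12302 protein-coding genes had a median of 0.07. By length, genes that are not snRNAs had medians of -2.46 from 120 to under 160 bases (n = 18), -1.62 to under 190 (n = 3), -1.81 to under 250 (n = 24) and 0.07 to under 350 (n = 125). The groups under 250 bases are the 45 genes above, split by length. The snRNA median of -1.17 lay between those of the other short genes and of all genes. The part of the labelled size range, fragment length or RNA input in this was not tested.

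**Figure D4:**
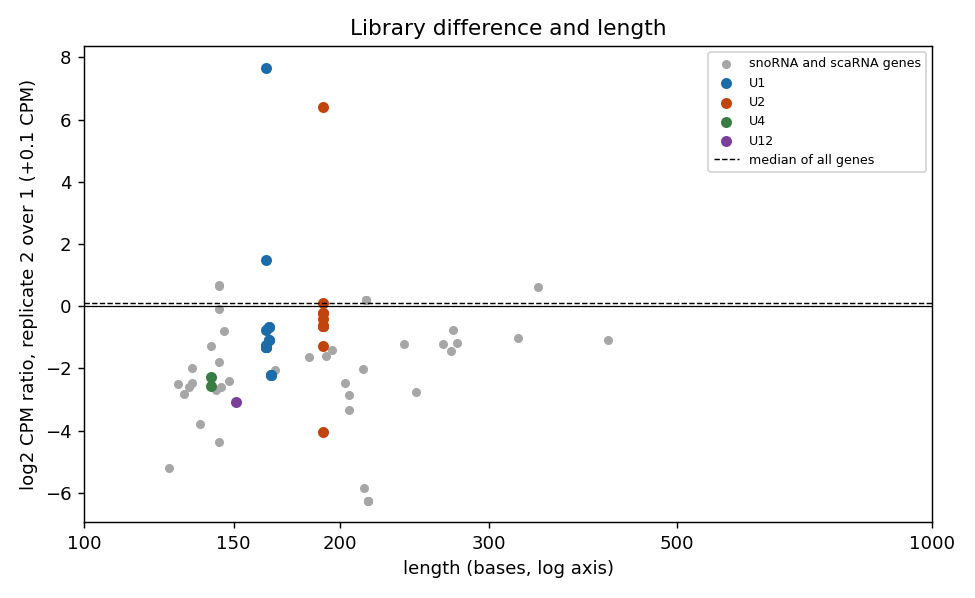
Log2 ratio of CPM in replicate 2 to replicate 1, with 0.1 CPM added, against length on a log axis, for the 32 snRNA genes (colour by family) and 43 snoRNA and scaRNA genes (grey), with a dashed line at the median of all genes (0.12). Most points of both kinds lie below 0, and the 3 snRNA points well above it are Gm24924, Gm24497 and Gm26244.

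The lowest ratios among genes with at least 50 counts were those of a U2 copy, the U12 gene, the U4 pair and a U1b set. Gm26316, which differs from Rnu2-10 by C170T, 22 bases from the 3′ end, had 211 and 8.70 counts, a ratio of 0.0510 (0.0238 to 0.102). Rnu12 had 48 and 3 counts. Gm24265 had 330 and 44 counts, a ratio of 0.165 (0.118 to 0.227), and Gm24407, with G88A and C99A against it, had 166 and 26, a ratio of 0.194 (0.123 to 0.294). Rnu1b6 and its 2 copies had a ratio of 0.176 (0.101 to 0.281) in sum. Gm26316 was low in replicate 2 in the other table too, with 235 and 9.54 counts.

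The 3 genes over 2-fold higher in replicate 2 were all near copies of a more abundant sequence, each set apart from it by 1 base close to the 3′ end. Gm24497 carries C186A, 6 bases from its end, in addition to the G109C that it shares with Gm23472. It had 10.87 counts in replicate 1 and 888.86 in replicate 2, a ratio of 101 (55.6 to 201). Gm26244 and Gm24924 differ from Rnu1a1 by 1 base each, 13 and 12 bases from the end. They had 156.87 and 0 counts in replicate 1, and both were listed in replicate 2 with 359.41, the same value as each copy of the Rnu1a1 set.

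No group was over 2-fold higher when near copies were added together, a grouping chosen after the values had been seen. The sums were mostly made of the more abundant sequences. Gm23444 and Gm23472 alone had 7142 and 4941 counts, and the 7 copies of the Rnu1a1 sequence 7848 and 2516. The sums therefore cannot show whether the near copies themselves were higher in replicate 2. The group of Gm23444, Gm23472 and Gm24497 had 7153 and 5830 counts, a ratio of 1.01 (0.974 to 1.04). Rnu1a1 and its 8 copies and near copies had 8005 and 3235, a ratio of 0.50 (0.480 to 0.521). Over the 15 groups of entries that are identical without their last 15 bases, 0 were over 2-fold higher and 8 were over 2-fold lower in replicate 2, with a median log2 ratio of -1.16.

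Other estimates of the same reads placed these near copies elsewhere. The gene table also holds a posterior mean count, which was 1773 and 1953 for Gm24497, with posterior SDs of 689 and 916. For Gm26244 it was 290 and 429, and for Gm24924 196 and 414. The other table gave Gm24497 2092 and 6520 counts, Gm26244 233 and 0.0473, and Gm24924 79.1 and 131. Gm26244 was thus higher in replicate 2 by the gene table and at nearly 0 there by the other. The expected count of 10.87 for Gm24497 in replicate 1 stood far below both of the other estimates.

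**Figure D5:**
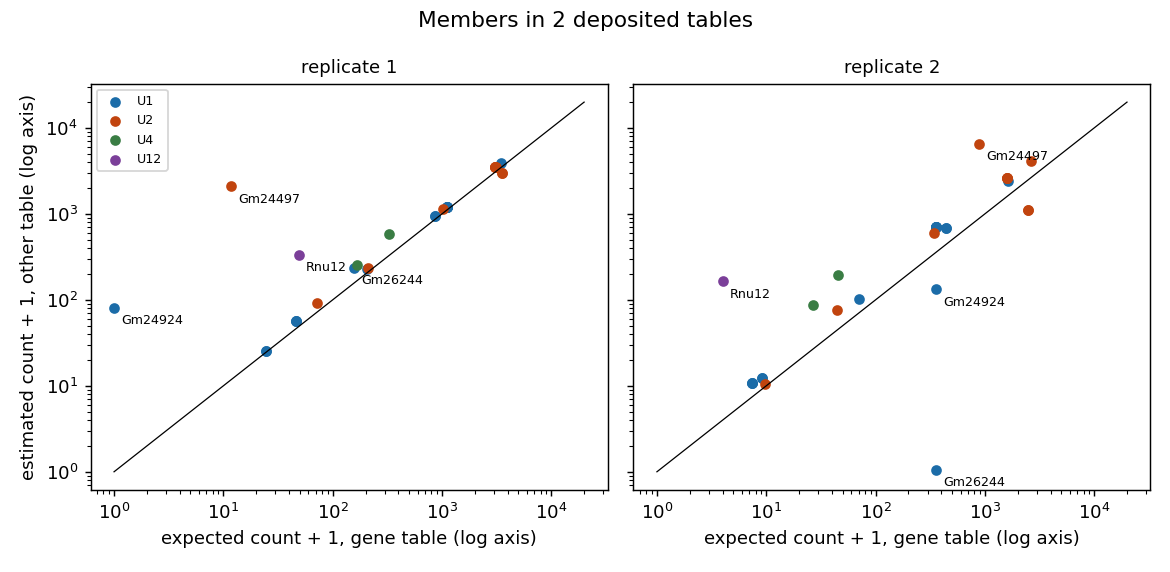
Estimated count in the other transcript table against expected count in the gene table for the 32 genes, each plus 1 and on log axes, in replicate 1 (left) and replicate 2 (right), with a line of equal values. In replicate 1, 30 of the 32 points lie above the line and in replicate 2, 28 do, on table totals that differ 1.37 and 1.77 times, while Gm24497, Gm24924 and Gm26244 leave it in at least 1 library and Rnu12 lies above it in both.

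Summed over families, U1 and U2 differed less between the 2 tables than U4 and U12. The other table held 1.37 and 1.77 times the total counts of the gene table in the 2 libraries. It gave U2 1.13 and 1.58 times and U1 1.11 and 1.55 times the counts of the gene table, less than those totals. It gave U4 1.68 and 4.0 times and U12 6.89 and 54.3 times as many, more than the totals. Scaled to each table's total, the 32 genes had 1436 and 1072 CPM in the other table against 1731 and 1196 in the gene table. Rnu12 had 331 and 163 counts there, against 48 and 3. In counts not scaled to the table totals, 29 of the 32 genes lay within 2-fold between the 2 tables in replicate 1 and 24 in replicate 2. In counts the other table was higher for 30 of them in replicate 1 and 28 in replicate 2, but in CPM for only 6 and 12. It was lower in both libraries for the pair Gm23444 and Gm23472, near copies of Gm24497. Both tables held 6 equal sets.

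By TPM the direction between libraries was less uniform, since each count weighed more in replicate 2. Of the 32 genes, 25 had lower and 7 had higher TPM there. U1 went from 61030 down to 51555 TPM and U4 from 6946 down to 1926, while U2 went from 45675 up to 55033. Gm23472 went from 6829 to 8890 TPM as its counts went from 3571 to 2471. For U2 the 2 units thus gave opposite directions.

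The mRNAs for snRNP proteins and for snRNA synthesis were present at moderate levels and had no common direction between the libraries. Of 109 such genes from 9 lists, 108 had at least 10 counts, 103 had at least 1 TPM and the median was 7.26 TPM. Snrpn, a Sm protein gene, was at 0. In replicate 2, 52 of the 108 had fewer CPM, with a median log2 CPM ratio of 0.04. Over 2-fold lower were 4 of the 108, against 6.83% of all genes, namely Snrpg (53.2 and 20 counts), a Sm ring protein, Sf3b5 (111 and 41), a U2 protein, Lsm7 (94.4 and 26.6), of the ring on U6, and Gemin4 (53.4 and 17.3), of the complex that loads Sm rings. Gemin8, of the same complex, was the 1 gene over 2-fold higher, against 9.83% of all genes, at 15 and 27 counts. They are named because they are so few, after their values were seen. The list of 6 U1 protein genes, which includes Luc7l, Luc7l2 and Luc7l3, had the highest median, 43.5 TPM. Snrnp70, which binds a stem-loop of U1, had 57.2 and 67.1 TPM. The U1 protein genes Snrpa, with 15.3 and 10.3 TPM, and Snrpc, with 6.82 and 6.43 TPM, were lower.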

How the data were processed

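Ribosomal RNA-depleted nuclear RNA of 1 group was sequenced in 2 libraries. The authors deposited gene tables derived from a transcriptome alignment (mm10, GENCODE M21), per the deposited text files. Their deposited values are expected counts, meaning estimated reads that are not whole or normalised, with posterior means and SDs, and TPM over effective length, per the file headers. A transcript table made from the reads directly holds the authors' estimated counts and TPM. The sources used here give no quantifier, version or strand.

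snRNA entries were those so typed in the transcript table. CPM used the total of 55536 named genes. Numeric and spike-in entries stayed out, except that phiX174 gave a fragment length. Library ratios were log2 of CPM + 0.1, and over 2-fold was counted. The 95% intervals of ratios are exact conditional binomial ones on rounded counts, and shares have Wilson intervals. Both cover counting error only, as does the limit of 3 counts for 0. With 1 group there was no test. Families came from edit distances (edlib 1.3.9.post1). The ratio calculation was tested on simulated data. The values and sequence of 1 further snRNA are not reported here. A chi-square comparison showed that the libraries are not 1 library deposited again.

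The genes, lists and rules were chosen with earlier results of these data known. Genes were named if they were Rnu-named, in the top 10 by counts or top 5 by TPM, among the 5 most extreme ratios each way with at least 50 counts, in the largest 3 sets, or 3 on either side of the minimum. Others are named as copies of these. Alternatives covered pseudocounts, scaling, minimums, units, tables and leaving out each replicate. Python 3.11.15, numpy 2.4.6, pandas 2.3.3, scipy 1.17.1, matplotlib 3.10.9, R 4.3.3, edgeR 4.0.16 (TMM) and DESeq2 1.42.0 (size factors) were used.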

Additional observations from a re-analysis of the deposited data

How the results depend on the processing

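No paired analysis was possible because there was 1 group. The 32 genes were the same number at minimums of 5 and 20 counts, and the other transcript table gave 220. With only 1 replicate the minimum was lowered to 5 counts, and 31 genes reached it in either. In replicate 2, Rnu12 (3), Rnu1b6 and its copies (6.46), Rnu1b1 and Rnu1b2 (8.06) and Gm26316 (8.70) had fewer than 10 counts. In replicate 1, Gm24924 had 0. The mean share of counts, 0.146%, ran from 0.120% to 0.173% when each replicate was left out. The mean TPM share, 11.1%, ran from 10.9% to 11.4% likewise, and was 11.9% without mitochondrial genes and 1.10% in the other table. The number of equal sets was 6 under every alternative tried, but their members were not always the same. By replicate 2 alone, Gm26244 and Gm24924 joined the set of the Rnu1a1 sequence, at 359.41 counts and 3183.22 TPM. That set then held more than 1 sequence.

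The median log2 ratio of -1.17 kept its sign under all 13 alternatives. It was -1.25 and -0.97 with 0.01 and 0.5 CPM added, -1.28 with TMM and -1.28 with DESeq2 size factors, and -1.13 without mitochondrial genes. It was -0.59 by TPM, -0.83 in the other table, -1.26 at a minimum of 50 counts and -0.66 with none. It was -0.93 with equal genes counted once, -1.26 for genes overlapping no other and -1.09 by posterior means. TMM moved the median of all genes from 0.12 to -0.01, and relative to it the 32 stood at -1.28 either way. Gm25939, just above 0, was below the median of all genes.

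The 18 genes over 2-fold lower became 7 by TPM, 12 in the other table, 9 with equal genes counted once and 8 with near copies summed. The 3 over 2-fold higher became 1 in the other table, 0 for genes overlapping no other, 0 with near copies summed and 1 by posterior means. The last 2 alternatives were chosen after seeing the data. Counts of a few reads, as for Rnu12 in replicate 2, limit the precision of the lowest genes.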
